A study of Mus musculus with 11 samples.

Results

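Reactive astrocytes are commonly recognised by a small set of genes, of which Gfap, Vim, Aqp4, Serpina3n, Cd44, Osmr and Stat3 were followed in cortical nuclei of mice with and without tau pathology. The 7 members were taken from the deposited matrices by gene symbol, out of 31053 genes, with no measured value used in the rule. The set itself was chosen with earlier results of these data known, so shares of all genes printed beside it are a description only. Single nuclei were sequenced from frozen cortex of 11 mice in 4 genotype groups, 1 library per mouse. The labels give all of them as female, whereas the study's methods name male mice for RNA-seq, and this was not resolved here. All mice had been given tamoxifen. The 4 non-transgenic mice carried floxed alleles and no Cre (Ikbkb+/+). The 3 P301S mice carried in addition the human tau transgene with the P301S mutation, driven by the prion promoter, which gives neurons tau inclusions with age (Ikbkb+/+;P301S+). The 2 knockout P301S mice had Cx3cr1-CreERT2, which acts in microglia and related macrophages, and floxed Ikbkb, the gene for the NF-κB activating kinase IKKβ (Ikbkb-/-;P301S+). The 2 active IKKβ P301S mice had the same Cre and a constitutively active IKKβ behind a floxed stop in Rosa26 (IkbkbCA;P301S+). Neither Cre group had a non-transgenic counterpart here, and no Ikbkb+/+ mouse carried Cre, so Cre and the Ikbkb alleles cannot be told apart. Ages were 10.03, 10.03, 10.85 and 9.8 months in the non-transgenic mice, 9.15, 10.03 and 10.75 months in the P301S mice, 8.39 and 9.15 months in the knockout P301S mice, and 10.85 and 9.8 months in the active IKKβ P301S mice. Both knockout P301S mice, non-transgenic replicates 1 and 2 and P301S replicates 1 and 2 came from the floxed Ikbkb line, and the other 5 mice from the active IKKβ line. Replicate numbers follow that order, and each is 1 mouse.

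Astrocytes answer injury, protein deposits and cytokines with a graded change of state called reactivity. In that state they build more intermediate filaments from GFAP and vimentin, alter their water channels and surface receptors, and secrete protease inhibitors and complement. One well-studied route runs through cytokines of the interleukin-6 family: oncostatin M binds its receptor OSMR together with gp130, Janus kinases are switched on, and the transcription factor STAT3 enters the nucleus and acts on genes that include Gfap. Cx3cr1 is not a gene of astrocytes, so the Cre was not directed at the cells described here.

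In GRCm38, the build of the deposited matrices, Gfap lies at chr11:102887336-102900912 on the minus strand and Stat3 on the same chromosome at chr11:100885098-100939540, also on the minus strand. Vim lies at chr2:13573927-13582826 on the plus strand, Cd44 at chr2:102811141-102901665 on the minus strand, Osmr at chr15:6813577-6874969 on the minus strand and Serpina3n at chr12:104406729-104414329 on the plus strand. Aqp4 is named only. Stat3 overlaps Stat5a, Gfap overlaps Gm26668, Cd44 overlaps Gm23731 and Aqp4 overlaps AC133525.2, in each case on the other strand. Serpina3n belongs to a family of 11 annotated Serpina3 genes of similar sequence, so its counts are uncertain where reads fit several copies. The other copies in the matrices had at most 3 UMIs each in astrocytes. Promoters of 300 bases, 250 of them before the transcription start, were taken from RefSeq on GRCm38.p6 for the 6 members that had one. They were searched on both strands for the STAT motif TTCNNNGAA and the AP-1 motif TGANTCA, since STAT3 is a member and AP-1 is a factor of many injury responses. The STAT motif was found in the Gfap promoter and in no other of the 6, and the AP-1 motif in the Osmr promoter and in no other. Among all 32851 promoters, 8.30% held the STAT motif and 7.81% the AP-1 motif. The 2 promoters with a match are shown, with the match in capitals, which starts at base 249 in Gfap and at base 254 in Osmr. The Gfap window is chr11:102897151-102897450 and the Osmr window chr15:6874264-6874563, both on the minus strand, and the GENCODE span of both genes begins further upstream.
Gfap: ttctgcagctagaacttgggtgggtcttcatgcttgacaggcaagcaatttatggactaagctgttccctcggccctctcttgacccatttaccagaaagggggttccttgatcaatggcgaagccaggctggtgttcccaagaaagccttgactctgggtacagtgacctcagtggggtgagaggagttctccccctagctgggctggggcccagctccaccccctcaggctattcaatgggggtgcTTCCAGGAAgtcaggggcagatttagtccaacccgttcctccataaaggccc
Osmr: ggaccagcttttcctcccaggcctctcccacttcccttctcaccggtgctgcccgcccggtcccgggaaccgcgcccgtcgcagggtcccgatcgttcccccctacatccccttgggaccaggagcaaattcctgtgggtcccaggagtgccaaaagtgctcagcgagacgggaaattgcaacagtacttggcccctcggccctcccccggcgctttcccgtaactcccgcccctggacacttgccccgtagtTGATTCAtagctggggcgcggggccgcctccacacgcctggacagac

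Astrocytes were the nuclei with at least 3 of the 6 markers Acsbg1, Ntsr2, Gpc5, Fgfr3, Plpp3 and Gli3 and at most 1 UMI of Slc17a7, a neuronal glutamate transporter. A UMI is a molecular tag and stands for 1 captured RNA. This gave 7437 astrocytes of 103065 nuclei, 523 to 879 per mouse, and their median depth was 3347 to 5161 UMIs. Their label held: 8 further astrocyte genes (Slc1a2, Slc1a3, Aldh1l1, Gja1, Sox9, Aldoc, Slc7a10 and Glul) were all highest in these nuclei, by 1.44 to 18.1 times over the next cell type. Nuclei with markers of striatal neurons, a gauge of how the cortex was dissected, were 4.01% to 15.9% of all nuclei and 8.25% in P301S replicate 3. Only 4 astrocyte barcodes occurred in more than 1 library. In all, 674 of the astrocytes (9.06%) also passed the gate of another type, mostly that of oligodendrocyte precursors. The share of nuclei that were astrocytes was 5.22% to 9.17%, and in none of 4 comparisons did it pass an exact permutation test (adjusted p 0.933 to 0.955). Only the comparison of all 7 mice with the tau transgene against the 4 non-transgenic mice could have passed. The groups of the other comparisons are too small for that, so their outcome decides nothing. Ikbkb, counted over introns and exons and therefore no check of a deleted exon, was at 112 and 115 CPM in microglia of the knockout P301S mice, at 163 and 152 CPM in those of the active IKKβ P301S mice and at 125 to 155 CPM in those of the other 7 mice.

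Levels are given as UMIs per 1000000 UMIs (CPM) of the astrocytes of a mouse, summed. A higher sum can come from more nuclei with the transcript or from more copies per nucleus, and the sum does not tell these apart. P301S replicate 3, the only P301S mouse of the active IKKβ line with intact Ikbkb and no Cre, stood apart from all other mice: it had the highest level of all 7 members. It had 806 astrocytes with a median of 4385 UMIs, both within the range of the other mice, while its whole library had the fewest UMIs (72007219) and the most barcodes over the mitochondrial limit (246). The fold changes of the members in astrocytes are given with and without it.

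Gfap and Aqp4 belonged to astrocytes, whereas the other 5 members were shared with other cells. Gfap had a median over mice of 71.1 CPM in astrocytes (27.7 to 234) and of at most 1.62 CPM in any of the 8 other types, and the lowest astrocyte value lay above every value of oligodendrocytes, the next type (at most 4.54 CPM). Aqp4, the water channel of astrocyte endfeet, had a median of 163 CPM in astrocytes (126 to 276), followed by 8.36 CPM in oligodendrocyte precursors (4.59 to 18.4), with no overlap between these types. Further down, the levels of neighbouring types overlapped for Gfap, and for Aqp4 from oligodendrocytes on.

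Vim and Osmr were higher in cells of the vessel wall than in astrocytes. Vim, which is the filament protein of mesenchymal and endothelial cells too, had a median of 86.4 CPM in endothelial cells (0 to 238), 19.6 CPM in fibroblast-like cells, 7.22 CPM in mural cells and 6.14 CPM in astrocytes (2.93 to 13.02), and the range of each type overlapped that of the next. Osmr, the oncostatin M receptor, had a median of 152 CPM in mural cells (89.8 to 255), 86.2 CPM in endothelial cells, 40.9 CPM in fibroblast-like cells and 10.9 CPM in astrocytes (4.49 to 53.2). Its lowest astrocyte value lay above the highest value of excitatory neurons (0.367 CPM), the next type, and the other 4 types had medians of at most 0.145 CPM. The vascular types were few, with at most 74 endothelial, 75 mural and 78 fibroblast-like nuclei in a mouse. No endothelial nucleus was kept in active IKKβ P301S replicate 1, 1 in non-transgenic replicate 4 and 8 in P301S replicate 3. Endothelial levels of such mice carry little information, so the lower ends of the endothelial ranges are uncertain.

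Cd44, the hyaluronan receptor, had medians of 8.26 CPM in astrocytes (3.58 to 42.9), 6.11 CPM in fibroblast-like cells (0 to 38.9) and 5.06 CPM in microglia (0 to 36.1), which overlapped throughout. In endothelial cells there was no Cd44 UMI among 961641, which allows a level of up to 3.12 CPM. Serpina3n, a secreted serine protease inhibitor, was sparse, with 91 UMIs over all astrocytes. Its median was 1.595 CPM in astrocytes (0 to 7.87), 1.22 CPM in oligodendrocyte precursors and 1.13 CPM in oligodendrocytes, and these ranges overlapped. Stat3 was found in every type, from a median of 166 CPM in mural cells and 165 CPM in microglia to 119 CPM in astrocytes (92.1 to 192), 43.6 CPM in inhibitory and 33.7 CPM in excitatory neurons. Only at the lower end did neighbours separate: oligodendrocytes (56.0 to 97.5 CPM), inhibitory neurons (37.2 to 53.8 CPM) and excitatory neurons (26.5 to 37.1 CPM) did not overlap.

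**Figure D1:**
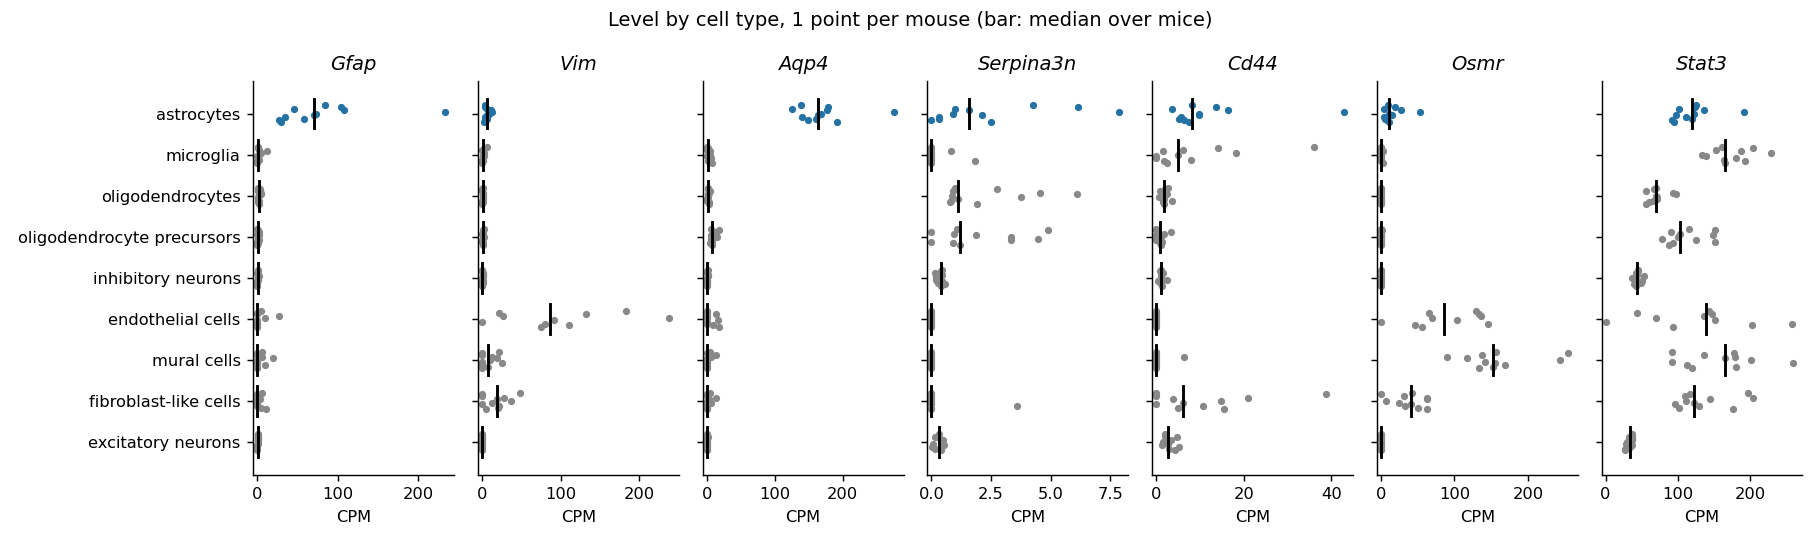
Level of each member (CPM, horizontal axis) by cell type (vertical axis), 1 point per mouse and a bar at the median over mice. Gfap and Aqp4 points lie apart from 0 mainly in astrocytes, with medians of 71.1 and 163 CPM, while Osmr is highest in mural cells (median 152 CPM) and Vim in endothelial cells (median 86.4 CPM).

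The first comparison set P301S mice against non-transgenic mice and asked whether astrocytes of mice with the tau transgene carried the reactive genes at another level. The place of a nucleus in the tissue and tau inclusions were not measured here. All 7 members had a higher mean in the P301S mice, and for Gfap, Vim, Cd44 and Osmr every P301S mouse lay above every non-transgenic mouse. That held for 4 of the 7 members and for 3.64% of the 13070 genes tested. None of the 7 passed the test across all genes, by edgeR's quasi-likelihood test with Benjamini-Hochberg adjustment (0% of 13070 genes called), and 5 of them had an unadjusted p under 0.05, as had 614 genes. DESeq2 called 3 genes and no member.

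Gfap, the filament gene that is the usual sign of reactivity, had the lowest unadjusted p of the members (0.00063, edgeR). Its level was 29.7, 27.7, 58.0 and 34.4 CPM in the non-transgenic mice and 71.1, 72.7 and 234 CPM in the P301S mice. The knockout P301S mice had 108 and 45.9 CPM, and the active IKKβ P301S mice 104 and 83.9 CPM. The mean was 37.5 ± 14 CPM in non-transgenic mice (SD, n = 4) and 126 ± 93.3 CPM in P301S mice (SD, n = 3), a log2 difference of 1.70 ± 0.39 (SE, edgeR adjusted p = 0.912). Without P301S replicate 3 the difference was 0.90. Of all 7 mice with the tau transgene, only knockout P301S replicate 2 lay below the highest non-transgenic value.

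Vim, the other filament gene of the set, followed a different order in the Cre groups. It was at 2.93, 3.41, 6.14 and 3.59 CPM in the non-transgenic mice, at 6.85, 8.92 and 13.02 CPM in the P301S mice, at 12.1 and 6.83 CPM in the knockout P301S mice and at 4.10 and 4.24 CPM in the active IKKβ P301S mice. The P301S and knockout mice lay above the non-transgenic mice, and the active IKKβ mice lay within their range. P301S and non-transgenic mice differed by 1.21 ± 0.33 on the log2 scale, with edgeR adjusted p = 0.999, and by 0.92 without P301S replicate 3. These levels rest on 7 to 53 UMIs per mouse.

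Aqp4 hardly separated the groups. Its levels were 192, 148, 161 and 139.9 CPM in the non-transgenic mice, 163, 168 and 276 CPM in the P301S mice, 177 and 126 CPM in the knockout P301S mice and 178 and 138 CPM in the active IKKβ P301S mice. Apart from P301S replicate 3, no mouse lay outside 126 to 192 CPM. The log2 difference between P301S and non-transgenic mice was 0.30 ± 0.18, and 0.037 without P301S replicate 3.

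Serpina3n was close to the limit of detection. It was at 2.51, 0, 0.307 and 0.300 CPM in the non-transgenic mice, where 0 UMIs allow up to 1.28 CPM in replicate 2, and at 2.14, 0.892 and 7.87 CPM in the P301S mice. The knockout P301S mice had 1.595 and 0.976 CPM and the active IKKβ P301S mice 6.15 and 4.24 CPM. The groups of P301S and non-transgenic mice overlapped, and the log2 difference of 2.40 ± 0.80 became 1.05 without P301S replicate 3 and 3.92 without non-transgenic replicate 1. The active IKKβ P301S mice were next to P301S replicate 3 at the top of the order.

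Cd44 and Osmr, both receptors at the cell surface, ranked the mice in nearly the same order. Cd44 was at 7.53, 6.40, 5.22 and 5.69 CPM in the non-transgenic mice, at 9.85, 9.81 and 42.9 CPM in the P301S mice, at 16.4 and 3.58 CPM in the knockout P301S mice and at 13.7 and 8.26 CPM in the active IKKβ P301S mice. Osmr was at 10.9, 8.95, 5.53 and 4.49 CPM, then at 15.4, 11.2 and 53.2 CPM, at 28.03 and 4.88 CPM and at 18.8 and 9.60 CPM in the same order of groups. In both genes P301S replicate 3 and knockout P301S replicate 1 were highest, and knockout P301S replicate 2 lay among or below the non-transgenic mice. The difference between P301S and non-transgenic mice was 1.80 ± 0.52 on the log2 scale for Cd44 and 1.92 ± 0.57 for Osmr, and 0.67 and 0.88 without P301S replicate 3. Over the 11 mice, log2 CPM of the 2 genes had a Pearson r of 0.96, and of 0.95 without P301S replicate 3, as a description only, since both are read from the same libraries.

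Stat3, the transcription factor downstream of OSMR, had the smallest difference after Aqp4. It was at 94.6, 92.1, 119 and 111 CPM in the non-transgenic mice, at 97.6, 122 and 192 CPM in the P301S mice, at 136 and 102 CPM in the knockout P301S mice and at 124 and 125 CPM in the active IKKβ P301S mice. The P301S and non-transgenic mice overlapped. The log2 difference was 0.36 ± 0.18, and 0.053 without P301S replicate 3.

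**Figure D2:**
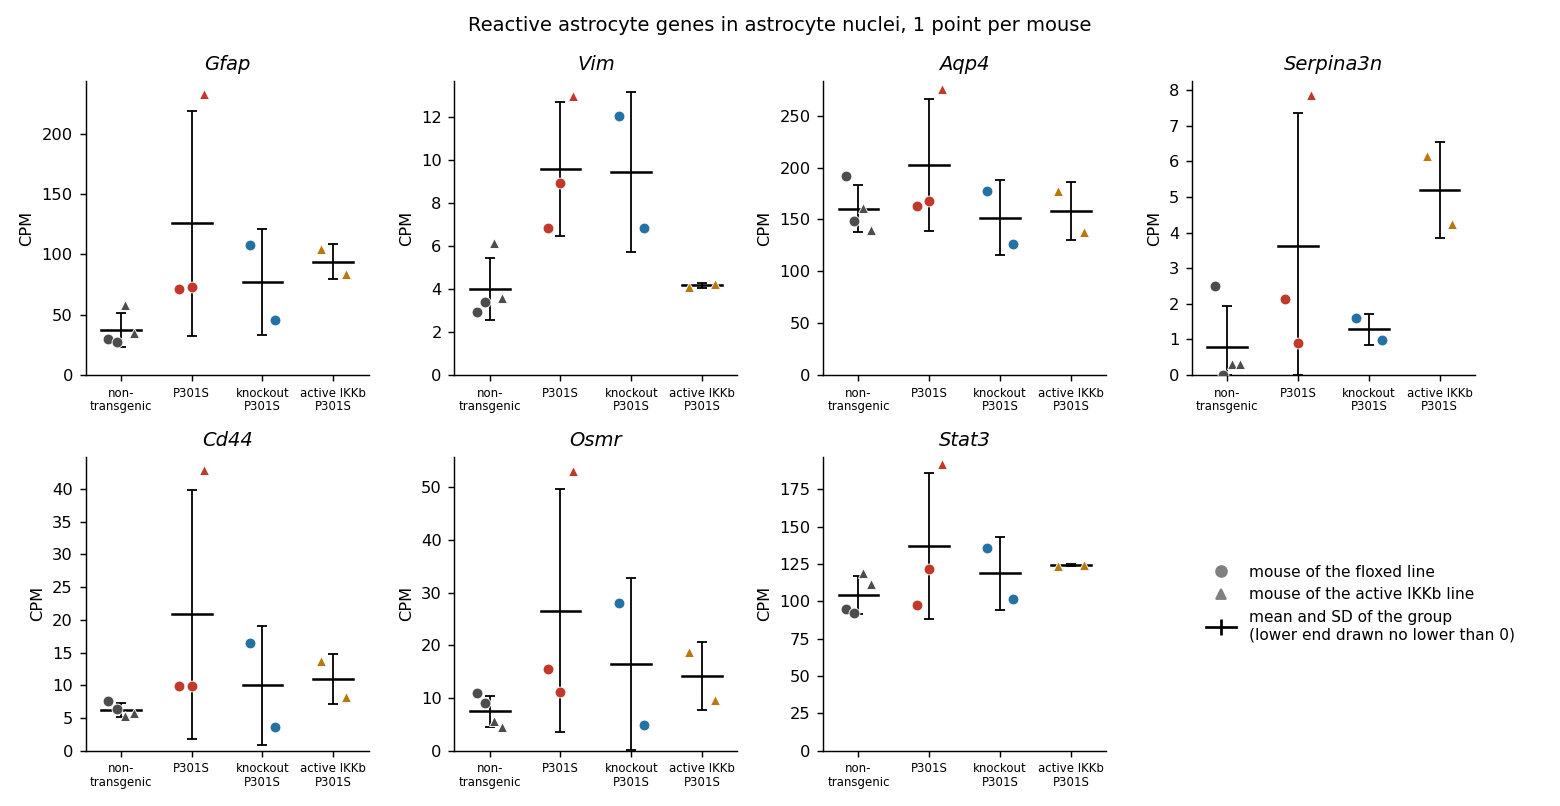
CPM of each member in astrocyte nuclei (vertical axis) by genotype group (horizontal axis), 1 point per mouse, shaped by breeding line, with the mean and SD of each group. P301S replicate 3, the triangle of the P301S group, is the highest mouse in all 7 panels, at 234 CPM for Gfap and 53.2 CPM for Osmr.

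Within the floxed line, with 2 P301S and 2 non-transgenic mice, the log2 difference was 1.32 ± 0.32 for Gfap, 1.303 ± 0.46 for Vim, 0.50 ± 0.55 for Cd44, 0.43 ± 0.60 for Osmr, 0.23 ± 0.16 for Stat3 and -0.038 ± 0.16 for Aqp4, and no member passed. Within the active IKKβ line the differences were 2.24 for Gfap, 2.87 for Cd44, 3.30 for Osmr and 4.45 for Serpina3n. They were 1.32 for Vim, 0.77 for Aqp4 and 0.64 for Stat3. The P301S arm there is P301S replicate 3 alone, assumed to vary like the other groups. These differences, and any calls from them, say no more than that this 1 mouse was high. A term for the difference between the lines took the P301S difference in the active line minus that in the floxed line. On the log2 scale it was 4.16 for Serpina3n, 2.87 for Osmr, 2.37 for Cd44 and 0.91 for Gfap. For Aqp4 it was 0.81, for Stat3 0.40 and for Vim 0.011. These values are a description only, since they rest on the same mouse. In the active line that mouse and the line cannot be told apart.

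Markers of some other cells differed with genotype inside the astrocyte gate. The summed level of the 5 oligodendrocyte precursor markers was 133 to 196 CPM in astrocytes of non-transgenic mice, 211 to 228 CPM in P301S, 191 to 209 CPM in knockout P301S and 244 to 246 CPM in active IKKβ P301S mice, against 2546 CPM in the precursors themselves, with none of the 5 at 0 in any mouse. The 8 microglial markers summed to 14.7 to 22.5 CPM in non-transgenic and 12.8 to 38.8 CPM in P301S mice, and the 8 endothelial markers to 6.89 to 23.4 and 5.14 to 41.5 CPM, with up to 1 and 4 markers at 0, and both were highest among these 7 mice in P301S replicate 3. The 6 mural markers, of cells rich in Osmr, summed to 152 to 170 CPM in non-transgenic and 138 to 184 CPM in P301S mice, with up to 3 at 0. The 8 fibroblast-like markers, of cells with Vim and Osmr, went the other way, with 201 to 298 CPM in non-transgenic, 166 to 206 CPM in P301S and 149 to 181 CPM in active IKKβ P301S mice and up to 2 at 0. When nuclei that passed a second gate were left out, the log2 difference between P301S and non-transgenic mice was 1.71 for Gfap, 1.22 for Vim, 1.81 for Cd44 and 1.97 for Osmr. The part of the remaining stray markers in these values was not tested.

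The knockout comparison asked whether microglial Ikbkb bears on these astrocyte genes in P301S mice. All 7 members had a lower fitted level in knockout P301S than in P301S mice, and none passed (edgeR, 0.513% of genes called, DESeq2 228 genes and no member). No member had an unadjusted p under 0.05 by edgeR, beside 2041 genes (15.6%). The log2 differences were -0.70 ± 0.45 for Gfap, -0.024 ± 0.33 for Vim, -0.41 ± 0.21 for Aqp4, -1.57 ± 0.83 for Serpina3n, -1.05 ± 0.57 for Cd44, -0.69 ± 0.59 for Osmr and -0.21 ± 0.21 for Stat3. Without P301S replicate 3 they were 0.11 for Gfap, 0.28 for Vim, 0.085 for Cd44, 0.36 for Osmr, 0.11 for Stat3, -0.14 for Aqp4 and -0.21 for Serpina3n, so that the sign of 5 of the 7 turned. The P301S mice that then remain are those of the knockout mice's own line. With age as a covariate, since the knockout mice included the youngest, the values were 0.29 for Gfap, 0.42 for Vim, 0.15 for Osmr and 0.16 for Stat3, and -0.086 for Aqp4, -0.45 for Serpina3n and -0.053 for Cd44. The 2 knockout mice themselves differed widely, since replicate 1 had 108 CPM of Gfap and 28.03 CPM of Osmr against 45.9 and 4.88 CPM in replicate 2. In their astrocytes the 6 markers of excitatory neurons summed to 252 and 322 CPM, against 142 to 192 CPM in the P301S mice. The 8 oligodendrocyte markers summed to 199 and 211 CPM against 99.3 to 158 CPM, and the 6 markers of inhibitory neurons to 97.8 and 108 CPM against 61.6 to 66.7 CPM. The part of these in the result was not tested.

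The active IKKβ comparison asked the opposite question, whether a microglial kinase that is always on goes with more of these transcripts. By edgeR, 0 of 7 members passed (0% of genes called, 825 with an unadjusted p under 0.05, and 0 by DESeq2). Vim was 1.21 ± 0.38 log2 units lower in active IKKβ P301S than in P301S mice (log2 difference -1.21, unadjusted p = 0.0065, edgeR adjusted p = 0.688), and both active IKKβ mice lay below all 3 P301S mice, as did 12.8% of all genes. Serpina3n was the only member with a higher fitted level, at 0.36 ± 0.67, which was 1.71 without P301S replicate 3 and -0.034 without P301S replicate 2. For the remaining 5 the log2 differences were -0.42 ± 0.44 for Gfap, -0.34 ± 0.21 for Aqp4, -1.02 ± 0.57 for Cd44, -1.003 ± 0.62 for Osmr and -0.13 ± 0.21 for Stat3. Without P301S replicate 3 the values of Gfap, Cd44, Osmr and Stat3 turned to 0.38, 0.12, 0.047 and 0.18, while those of Vim and Aqp4 stayed below 0 at -0.91 and -0.069. Leaving out that mouse compares the active IKKβ mice with P301S mice of the other line only, since it is the 1 P301S mouse of their own line. Within the active line, against that mouse alone, the differences were -1.25 ± 0.27 for Gfap, -1.57 ± 0.44 for Vim, -0.74 ± 0.21 for Aqp4, -0.56 ± 0.50 for Serpina3n, -1.93 ± 0.31 for Cd44, -1.88 ± 0.34 for Osmr and -0.56 ± 0.17 for Stat3, and none passed (edgeR adjusted p 0.284 to 0.990). In the astrocytes of the active IKKβ mice the markers of inhibitory neurons summed to 74.3 and 77.9 CPM against 61.6 to 66.7 CPM in P301S mice, and 11.7% and 12.2% of astrocytes passed a second gate against 5.40% to 8.93%. The part of this in the result was not tested.

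Over all 7 mice with the tau transgene, against the same 4 non-transgenic mice, the fitted level of every member was higher and none passed. By edgeR 0.00765% of genes were called, 1066 genes and 5 members had an unadjusted p under 0.05, and DESeq2 called 16 genes and no member. The log2 difference was 1.32 ± 0.34 for Gfap (edgeR adjusted p = 0.374), 0.80 ± 0.29 for Vim, 0.051 ± 0.15 for Aqp4, 1.99 ± 0.74 for Serpina3n, 1.11 ± 0.47 for Cd44, 1.35 ± 0.52 for Osmr and 0.25 ± 0.15 for Stat3. No member had all 7 mice above the non-transgenic range, and 0.482% of genes did. Without P301S replicate 3 the values were 1.06 for Gfap, 0.71 for Vim, 0.74 for Cd44, 1.01 for Osmr, 1.55 for Serpina3n, 0.15 for Stat3 and -0.032 for Aqp4. This comparison shares mice with the 3 above and is not independent of them.

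**Figure D3:**
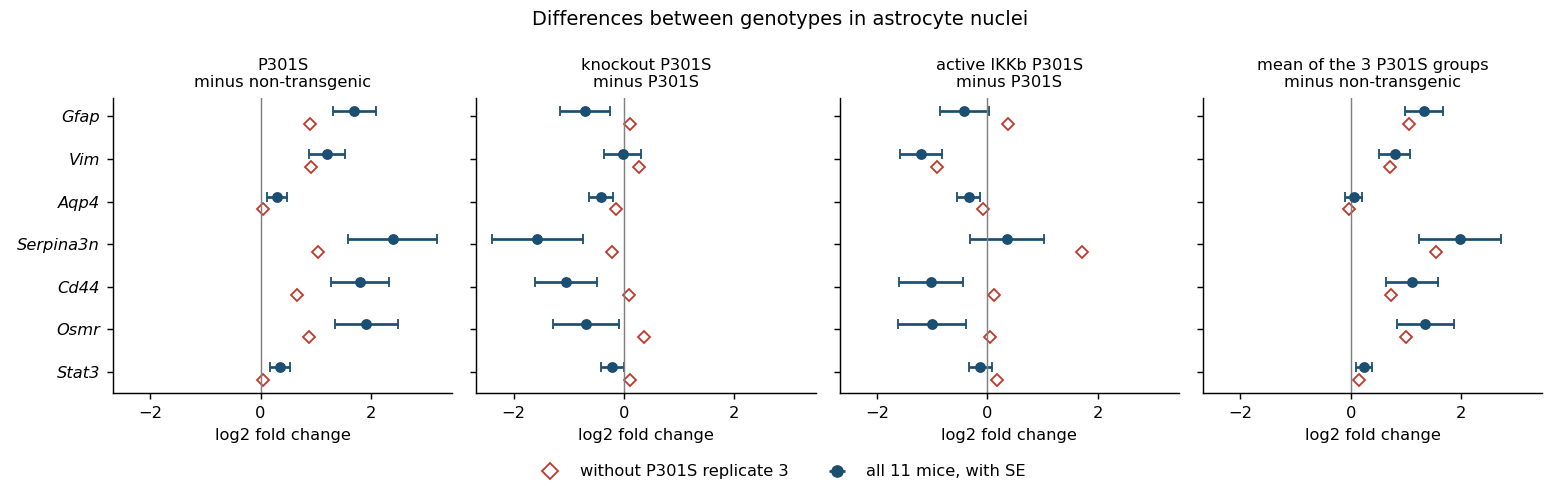
Log2 fold change of each member in astrocytes in 4 comparisons, with all 11 mice (filled points, bars are SE) and without P301S replicate 3 (open diamonds). Leaving out that mouse takes Gfap from 1.70 to 0.90 in the P301S comparison and turns 5 of 7 members above 0 in the knockout and 4 in the active IKKβ comparison.

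The calls depended on the genes that entered the fit. When genes with low counts were kept, edgeR called 5 of 7 members higher in P301S than in non-transgenic mice, namely Gfap, Vim, Serpina3n, Cd44 and Osmr, against 0.379% of 22947 genes. Gfap and Cd44 were then called lower in knockout P301S mice (3.48% of genes), Cd44 and Osmr lower in active IKKβ P301S mice (0.784% of genes), and Gfap, Serpina3n, Cd44 and Osmr higher over all P301S groups (1.33% of genes). The fold changes were nearly the same as before, 1.69 for Gfap in the P301S comparison, and the standard error of this value was 0.13 instead of 0.39. The reason was not tested. Whether p-values with low counts kept measure the spread between mice was not tested either, while Gfap ran from 71.1 to 234 CPM among the P301S mice. All calls with low counts kept are therefore a description only. Their shares of genes are taken over more genes than the 13070 tested with the filter. With low counts kept and P301S replicate 3 left out, Gfap alone of the members was called for P301S (0.89 ± 0.16, edgeR adjusted p = 2.46e-05, 0.246% of 22724 genes called), no member for the knockout (2.84% of genes) or active IKKβ (0.493%), and Gfap and Osmr over all P301S groups (1.2%).

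Genes around the members were read from 9 lists, and none of their tested genes passed in any of the 4 genotype comparisons. For P301S against non-transgenic mice the median log2 difference over all genes was -0.00080. The list of OSMR to STAT3 signalling, with ligands, receptors, Janus kinases and inhibitors, had 10 of its 18 genes tested, 6 of them above 0, with a median of 0.16. The A1 genes, a group described in astrocytes after inflammation, had 5 of 13 tested, all 5 above 0 and 3 with an unadjusted p under 0.05 (4.70% of all genes), with a median of 0.91. Of the pan-reactive genes 3 of 8 were tested (median 0.67), and of the A2 genes, described after ischaemia, 2 of 12 (median 1.18). The 11 disease-associated astrocyte genes had a median of 0.10, the 8 genes that anchor AQP4 of 0.055, the 3 tested filament partners of 0.025, the 5 tested partners of CD44 of 0.31 and the 14 homeostatic genes of -0.035. The 7 members had a median of 1.70. Without P301S replicate 3 the medians were 0.88 for the members, 0.44 for the A1 genes (1 of 5 with an unadjusted p under 0.05, beside 4.01% of all genes), 0.62 for the pan-reactive genes and 0.15 for OSMR to STAT3 signalling, and 1 A2 gene was tested, at 0.74. The filament partners were then at -0.12 and the AQP4 anchors at -0.011.

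**Figure D4:**
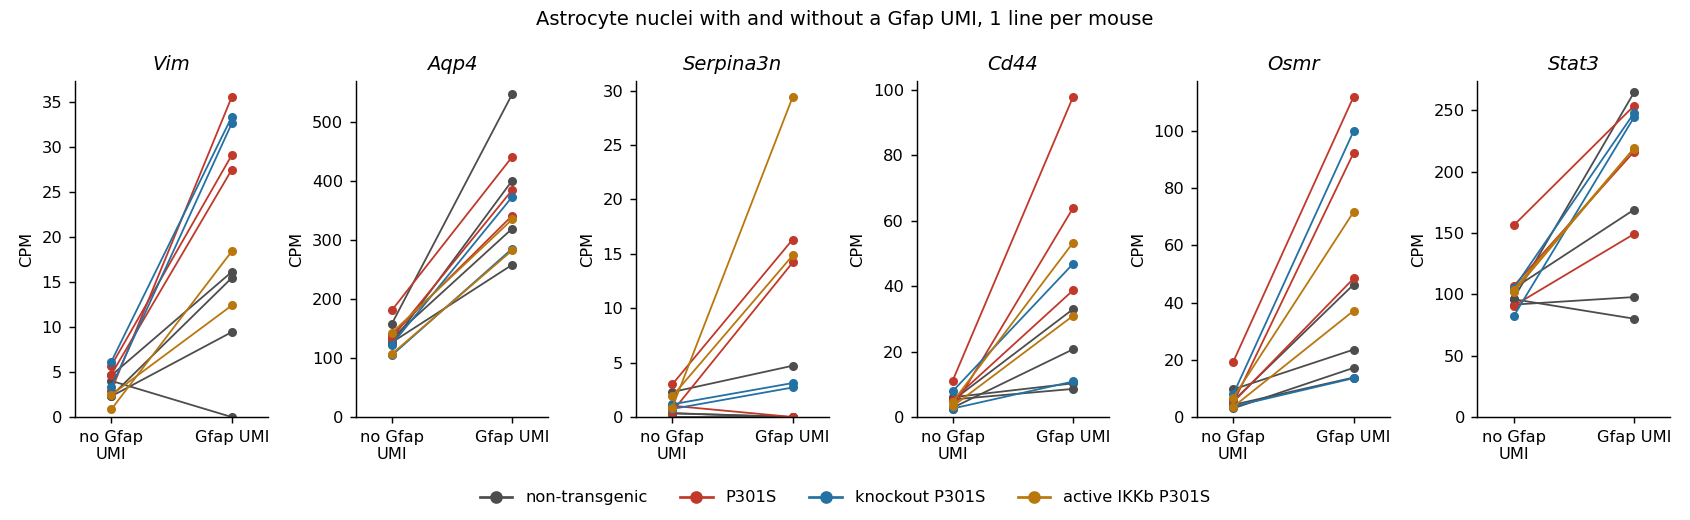
CPM of the other 6 members (vertical axis) in the summed astrocytes of each mouse without and with a Gfap UMI (horizontal axis), 1 line per mouse, coloured by genotype. The lines of Aqp4, Cd44 and Osmr slope upward in all 11 mice, from medians of 133, 5.05 and 5.18 CPM to 341, 33.0 and 46.3 CPM.

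Astrocytes in which Gfap was captured carried more Osmr, Cd44, Vim, Aqp4 and Stat3 than the other astrocytes of the same mice. A Gfap UMI was found in 1267 astrocytes (45 to 299 per mouse) and in none of the other 6170, and both sets had nearly the same depth, with a ratio of median UMIs of 0.950 to 1.04. Summed per mouse and compared with the mouse as a block by edgeR, Aqp4 rose with Gfap by 1.39 ± 0.063 log2 units (edgeR adjusted p = 1.10e-20) and Stat3 by 0.95 ± 0.090 (edgeR adjusted p = 2.63e-11), against 7.59% of 10357 genes higher and 18.7% called in either direction. Both reached the level the low-count filter asks for, 6.10 CPM, in all 11 sums of either set. Osmr differed by 2.95 ± 0.18, Cd44 by 2.83 ± 0.20 and Vim by 2.46 ± 0.25, but these 3 had passed the filter through the astrocytes with a Gfap UMI, since without one they reached that level in 4, 2 and 1 of 11 mice, so their place among the tested genes depends on the difference itself. Serpina3n did not pass the filter, with 59 UMIs in astrocytes with a Gfap UMI and 32 in the far more numerous ones without, and was higher in 7 of 11 mice. With no filter on low counts, an alternative added after seeing the data, every one of the 6 members was tested and rose, beside 2.78% of 22946 genes higher, from 0.89 for Stat3 to 2.91 for Osmr and with Serpina3n at 2.60. Gfap made the split and is no result.

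Osmr, the gene whose promoter is printed above with its AP-1 match, was higher beside a Gfap UMI in 11 of 11 mice. This count is a description only, since Osmr had passed the filter through the astrocytes with a Gfap UMI. The share of all genes higher in 11 of 11 mice is not given. In non-transgenic mice it was at 23.6, 46.3, 13.8 and 17.2 CPM with a Gfap UMI and at 9.64, 5.58, 4.25 and 3.01 CPM without. In P301S mice it was at 92.3, 48.4 and 112 CPM with and at 4.87, 5.18 and 19.2 CPM without. In knockout P301S mice the values were 99.9 and 13.6 CPM against 7.88 and 3.70 CPM, and in active IKKβ P301S mice 71.7 and 37.1 CPM against 6.71 and 3.54 CPM. Both levels were highest in P301S replicate 3.

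Cd44 showed the same form. With a Gfap UMI it was at 8.59 to 33.0 CPM in non-transgenic mice and at 38.7 to 97.9 CPM in P301S mice, and without one at 2.84 to 6.04 and 2.43 to 11.1 CPM. Pooled over the mice of a group, Cd44 with Gfap was at 17.6 CPM in non-transgenic, 83.5 CPM in P301S, 36.9 CPM in knockout P301S and 39.9 CPM in active IKKβ P301S mice, and at 3.797 to 6.48 CPM without Gfap. The P301S value was 50.7 CPM without P301S replicate 3. Vim was higher in 10 of 11 mice and Stat3 in 10 of 11, the exceptions being non-transgenic mice in both, and Aqp4 was higher in all 11, with 258 to 547 CPM beside 104 to 180.5 CPM. These counts of mice too are a description only, with no share of all genes beside them. Whether these differences are unequal between genotypes was not tested.

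The 10 genes that led among those higher in all 11 mice were Myoc, Osmr, Cd44, Tex11, Mamdc2, Ggta1, Aspg, Thbs4, Tshr and C4b, with log2 differences from 3.15 for Myoc to 1.80 for C4b. Without a Gfap UMI, Myoc, Osmr and Cd44 had medians of 4.65, 5.18 and 5.05 CPM, under the filter level of 6.10 CPM. They had thus passed the filter through the astrocytes with a Gfap UMI, and their place in this order depends on the difference itself. For the other genes named here the standing to the filter is not given. Myoc encodes myocilin, a secreted glycoprotein, and had a median of 67.9 CPM with a Gfap UMI. C4b encodes complement component 4 and rose from 47.1 to 161 CPM. Thbs4, the extracellular thrombospondin 4, rose from 13.8 to 51.5 CPM.

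The lists count only genes that passed the same filter. All 11 disease-associated astrocyte genes rose in the astrocytes with a Gfap UMI, with a median of 0.63 against 0.017 over all genes. Id3, a transcriptional inhibitor, led them at 1.31 ± 0.10, followed by Fxyd1, a regulator of the sodium pump, at 0.91 ± 0.14, the chaperone Clu at 0.81 ± 0.069 and the metallothionein Mt1 at 0.74 ± 0.10. Of the 8 genes that anchor AQP4 at the endfoot 4 rose and none fell, among them Mlc1 at 0.50, the dystrobrevin Dtna at 0.22 and Utrn at 0.20. Of 8 tested genes of OSMR to STAT3 signalling, Il6st, which encodes the gp130 partner of OSMR, rose by 0.61 and the phosphatase gene Ptpn11 fell by 0.31. Aspg was the pan-reactive gene that rose (1 of 2 tested), and of 2 tested A1 genes Ggta1 rose by 2.16 and Fkbp5 fell by 0.69. Moesin and radixin, which link CD44 to actin, rose by 0.82 and 0.44 (Msn and Rdx, 2 of 4 tested partners). Of the 14 homeostatic genes 7 rose, beside 7.59% of all genes, Gja1 by 0.44, Aldh1l1 by 0.34 and Aldoc by 0.25 among them, and 1, Slc7a10, fell by 0.23. Neither of the 2 tested filament partners passed.

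Astrocytes with a Gfap UMI held fewer nuclei that passed a second gate, 1.74% against 10.6%, which was mostly a matter of the oligodendrocyte precursor gate (0.158% against 6.22%). Without all such nuclei Aqp4 rose by 1.21 and Stat3 by 0.91, beside 4.74% of 10021 genes higher. Osmr differed by 2.70 and Cd44 by 2.63 under the same dependence on the filter, and Vim and Serpina3n did not pass it. With these nuclei left out and no filter, the 6 members rose by 0.86 to 2.73, beside 1.95% of 22575 genes higher. With the filter, the number of genes called in either direction went from 1941 to 1214.

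The share of astrocytes with at least 1 UMI gave the count of nuclei behind the levels. It was taken after thinning each nucleus to 1000 UMIs, which left out 22 of 7437 astrocytes. A Gfap UMI was then found in 2.96%, 2.49%, 5.21% and 3.43% of astrocytes in the non-transgenic mice, in 4.51%, 6.97% and 17.3% in the P301S mice, in 8.99% and 4.53% in the knockout P301S mice and in 8.03% and 6.46% in the active IKKβ P301S mice. Of the 7 mice with the transgene, P301S replicate 1 and knockout P301S replicate 2 lay below the highest non-transgenic mouse, and the 3 transgenic groups overlapped each other. In excitatory neurons, which should lack Gfap, 0.0243% of nuclei had a UMI after the same thinning. Their shares were 0.0303% for Vim, 0.109% for Aqp4, 0.0121% for Serpina3n, 0.237% for Cd44, 0.0243% for Osmr and 3.12% for Stat3, so that the Cd44 share of non-transgenic replicate 2 was below that of these neurons. Without thinning the shares were 17.0% of astrocytes (95% Wilson interval 16.2% to 17.9%, counting error only) and 0.558% of excitatory neurons, at median depths of 4352 and 12613 UMIs.

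None of 28 exact two-sided permutation tests of these shares, 7 members in 4 comparisons, passed after adjustment (lowest adjusted p 0.392). Only tests over all 7 mice with the transgene could have passed, with a smallest possible exact permutation p of 0.00303. The groups of the P301S, knockout and active IKKβ comparisons are too small for any test to pass this adjustment, so their outcome decides nothing. For Gfap the mean share was 9.59% ± 6.78 in P301S (SD, n = 3) and 3.52% ± 1.19 in non-transgenic mice (SD, n = 4), with an exact permutation p of 0.0571, and the difference of 6.07 percentage points was 2.22 without P301S replicate 3. Over all 7 mice with the transgene it was 8.11% ± 4.38, a difference of 4.59 percentage points (exact permutation p = 0.0485). Without thinning the exact permutation p was 0.0545. With each mouse left out in turn that p ran from 0.0238 to 0.142 and was above 0.05 for 8 of the 11, and without P301S replicate 3 the difference was 3.06. For Cd44 the P301S mice had 1.20%, 0.871% and 4.01% against 0.348%, 0.191%, 0.668% and 0.429% in the non-transgenic mice, without overlap, and the exact permutation p of 0.0286 is the smallest that 4 against 3 mice can give. That difference was 1.62 percentage points, and 0.63 without P301S replicate 3. With 3 mice against 2 in the knockout and active IKKβ comparisons the exact permutation p cannot go below 0.1. Aqp4 was found in 9.60% to 22.9% and Stat3 in 7.25% to 16.0% of the thinned astrocytes of a mouse, Osmr in 0.601% to 3.63%, Vim in 0.191% to 1.04% and Serpina3n in 0% to 0.912%.

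**Figure D5:**
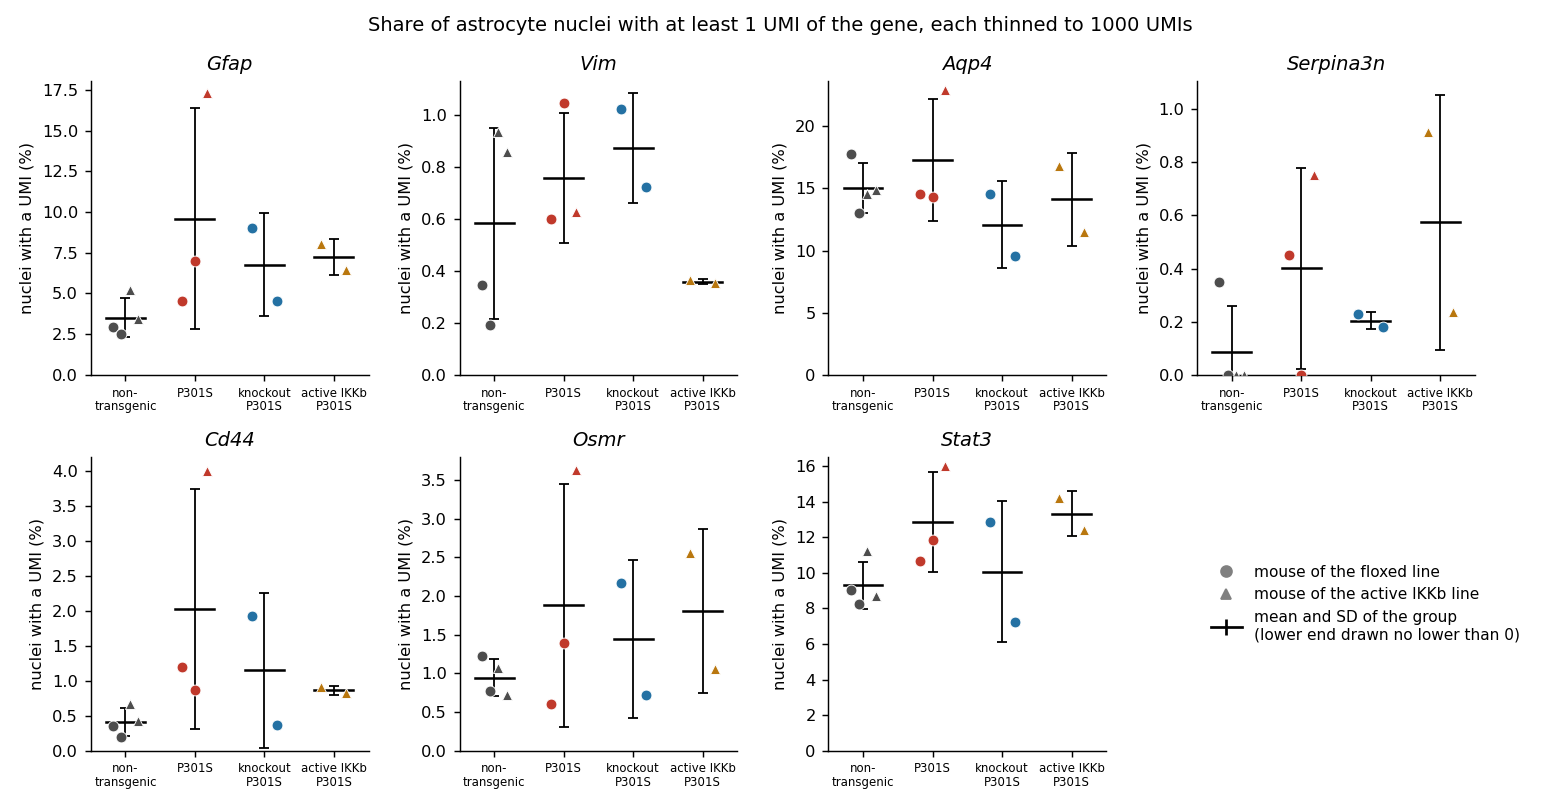
Percent of astrocyte nuclei with at least 1 UMI of each member after thinning each nucleus to 1000 UMIs (vertical axis) by genotype (horizontal axis), 1 point per mouse with group mean and SD. P301S replicate 3 has the highest share for Gfap (17.3%), Aqp4, Cd44, Osmr and Stat3, whereas for Vim and Serpina3n it does not.

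Outside astrocytes no member passed in any of 6 further cell types. Of 80 tests of a member in 4 comparisons, 0 passed by edgeR and 0 by DESeq2, and 7 (8.75%) had an unadjusted p under 0.05, beside 6.42% of all genes in the same fits. In microglia, where Cd44 and Stat3 were tested, 0.0566% of genes were called for P301S, 0% for the knockout, 1.6% for active IKKβ and 0.373% over all P301S groups. In oligodendrocytes, with 5 members tested, these shares were 0.00763%, 0%, 0.0153% and 0.00763%, and in oligodendrocyte precursors, with 2 tested, 0% in all 4. In excitatory neurons with 5 members they were 0.0305%, 0%, 0% and 0.0305%, in inhibitory neurons with 4 members 0.0131%, 0%, 0% and 0.0131%, and in mural cells, with Osmr and Stat3 tested, 0%, 1.61%, 0% and 0%.

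Cd44 in microglia differed widely between mice. On 0 to 52 UMIs per mouse, it was at 2.58, 1.83, 8.08 and 0 CPM in the non-transgenic mice, at 0, 5.06 and 18.2 CPM in the P301S mice, at 1.68 and 6.04 CPM in the knockout P301S mice and at 14.2 and 36.1 CPM in the active IKKβ P301S mice. The 3 highest values were the 2 active IKKβ mice and P301S replicate 3, all from the active IKKβ line. The log2 difference was 1.88 ± 0.85 for P301S against non-transgenic, -1.79 ± 0.94 for knockout P301S against P301S and 1.16 ± 0.58 for active IKKβ P301S against P301S mice (edgeR adjusted p 0.522 to 0.599). Its counts were too low for the test without P301S replicate 3. Within the active IKKβ line the P301S mice with and without the active kinase together had a fitted log2 difference of 2.59 ± 0.70 from the non-transgenic mice, with edgeR adjusted p = 0.0385 and 2.9% of genes called. The P301S arm with intact Ikbkb there is P301S replicate 3 alone, and its spread is taken from the other groups.

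Serpina3n in oligodendrocytes was at 1.90, 0.773, 0.808 and 1.13 CPM in the non-transgenic mice, at 3.76, 0.868 and 6.12 CPM in the P301S mice, at 4.54 and 0.903 CPM in the knockout P301S mice and at 2.75 and 0.991 CPM in the active IKKβ P301S mice. Each transgenic group had 1 or 2 mice above the non-transgenic range and 1 within it, and the log2 difference between P301S and non-transgenic mice was 1.57 ± 0.69 (edgeR adjusted p = 0.890), and 0.79 without P301S replicate 3. Gfap counts in neurons were low, at most 1.23 CPM in excitatory and 2.11 CPM in inhibitory neurons of any mouse, and had log2 differences of 1.94 ± 0.49 and 2.67 ± 0.64 between P301S and non-transgenic mice. The first was 1.49 without P301S replicate 3, and the second could not be tested. Osmr in mural cells, its type of highest level, was at 133, 152, 169 and 156 CPM in the non-transgenic mice and at 142, 243 and 117 CPM in the P301S mice, which overlapped (log2 difference 0.13 ± 0.32, and 0.33 without P301S replicate 3). Stat3 was highest in P301S replicate 3 in oligodendrocytes too, at 97.5 CPM, and in microglia, at 229 CPM.

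For the 3 members with a mean of at least 50 CPM in astrocytes, the genes whose log2 CPM followed theirs most closely over the 11 mice were sought among 3686 genes of at least that mean. Beside Gfap these were Stat3 (Pearson r 0.89), Ankrd12 (0.89) and AU040320 (0.88). Beside Aqp4 they were Gsap (0.89), Sertad2 (0.87) and Cnn3 (0.87), and beside Stat3 they were Lrrc8d (0.90), Gfap (0.89) and C4b (0.88). The values describe 11 mice whose levels all come from the same libraries, P301S replicate 3 among them. Gfap and Stat3 had an r of 0.80 without that mouse, and Gfap and Aqp4 had an r of 0.61 with it and 0.23 without.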

How the data were processed

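Nuclei from frozen cortex of 11 mice had been sorted by DAPI and sequenced with the 10x Chromium 3′ v3 kit. The authors aligned the reads with Cell Ranger 3.1.0 to mm10 with introns counted, and deposited raw UMI counts per gene and barcode. Seurat 3.0 is named in the submitters' processing notes. The values were not normalised. Libraries held 7500 to 12315 barcodes and 72007219 to 93205362 UMIs.

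As in the study, barcodes under 300 or over 8000 genes or over 5% mitochondrial reads were removed, which kept 112539 of 114118. Of these, 9474 were called doublets from simulated pairs (0.8% per 1000 barcodes) and left out (1000 of 8437 in the astrocyte gate), whereas DoubletFinder and MAST, which the study used, were not run. Other types needed at least 3 of their own markers and were to pass neither the astrocyte gate nor a second gate. A nucleus that passed the astrocyte gate and another was kept as an astrocyte. No type was given to 40485 of the 103065 nuclei, and 285 further nuclei that passed several gates were set aside. Counts were summed per mouse and type and tested with edgeR 4.0.16 in R 4.3.3 (TMM, filterByExpr, quasi-likelihood test, 1 term per genotype, all 11 mice). A gene was called at an adjusted p under 0.05 and an absolute log2 fold change over 0.1. DESeq2 1.42.0 was the other tool. SE is that of the log2 fold change. Types with fewer than 20 nuclei in a mouse were not tested. Plain CPM used no TMM factor. The test was also run on data simulated from the astrocyte sums of all 11 mice. It recovered 139 of 199 genes changed 2-fold in the P301S mice, with 9 false calls. These genes were drawn at random from all genes tested, so the share recovered is not that of the members. The p-values of the genotype comparisons measure the spread between single mice, and those of the Gfap split the spread of differences within mice. Where a group holds 1 mouse, its spread is taken from the other groups. Whether the p-values with low counts kept measure the spread between mice was not tested.

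Alternatives were DESeq2 size factors, no TMM factor, no filter on low counts, age or line as a covariate and the number in the sample title as a block. Others were different astrocyte gates, doublets kept, thinning and leaving out each mouse. Added after seeing the data were fits within each line, the term for the difference between lines, the fit with low counts kept and P301S replicate 3 left out and the Gfap split without nuclei passing a second gate, without the filter on low counts, or without both. The members and lists were chosen with earlier results of these data known. Named were the members, the leading called genes of each list (at most 4), the 10 called genes of greatest difference that were higher in all 11 mice, and the 3 genes most alike to a member of at least 50 CPM. Symbols were matched to GENCODE M21 for 31011 of 31053 genes.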

Additional observations from a re-analysis of the deposited data

Results flagged for a closer look

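Serpina3n in astrocytes of non-transgenic replicate 1, at 2.51 CPM, stood far from the other 3 non-transgenic mice, the nearest of which had 0.307 CPM. The value rests on 6 UMIs. In the same mouse 0.348% of astrocytes thinned to 1000 UMIs had a Serpina3n UMI, against 0% in the other 3. These were 2 of 22 groups of 4 mice examined in this way, and chance alone gives about 1 in 20.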

How the results depend on the processing

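Limits come first. The fits rest on 2 to 4 mice per group, 2 of the members, Serpina3n and Vim, rest on 91 and 236 UMIs over all astrocytes, and line, age and Cre are partly or wholly tied to genotype. Among the log2 fold changes of the members in astrocytes, 612 of 675 values under all alternatives kept their direction and their side of the threshold, 44 changed sign and 19 passed only under the alternative. In the comparison of astrocytes with and without a Gfap UMI the 83 values available for the members tested as reported lay between 0.86 and 3.68. Causes were not tested except where named.

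With low counts kept and P301S replicate 3 left out, 56 genes were called for P301S with Gfap the 1 member, 645 for the knockout, 112 for active IKKβ and 272 over all P301S groups with 2 members. The sign then turned in the knockout comparison for Gfap (0.13), Vim (0.31), Cd44 (0.11), Osmr (0.39) and Stat3 (0.13), in the active IKKβ comparison for Gfap (0.40), Cd44 (0.14), Osmr (0.065) and Stat3 (0.20), and over all groups for Aqp4 (-0.030).

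For P301S against non-transgenic mice, 0 genes and 0 members were called as reported. DESeq2 called 3 genes. Without a filter on low counts 87 genes and 5 members were called. Within the active IKKβ line 5 genes and 3 members were called, and within the floxed line 5 genes, with Aqp4 at -0.038. For knockout P301S against P301S mice 67 genes were called as reported. DESeq2 called 228, no filter 798 with 2 members, and the floxed line alone 460, while 0 were called with age as a covariate, with at least 4 markers, with called doublets kept, without nuclei passing a second gate, with total counts alone or after thinning to 1000 UMIs. In this comparison the sign turned with age as a covariate for Gfap (0.29), Vim (0.42), Osmr (0.15) and Stat3 (0.16), with line as a covariate for Vim (0.27) and Stat3 (0.0070), with at least 4 markers for Vim (0.053), and within the floxed line for Gfap (0.11), Vim (0.28), Cd44 (0.096), Osmr (0.38) and Stat3 (0.10). For active IKKβ P301S against P301S mice no filter gave 180 genes and 2 members, and Serpina3n turned to -0.12 with line as a covariate and to -0.56 within the active line. Over all P301S groups 1 gene was called as reported, 16 by DESeq2, 305 with 4 members without a filter, 2 with at least 4 markers, with called doublets kept or with line as a covariate, 6 within the floxed line, and 0 with age as a covariate, within the active line, without nuclei passing a second gate or with total counts alone. Aqp4 turned to -0.098 after thinning to 1000 UMIs and to -0.11 within the floxed line. In microglia 1 member passed within the active line over all P301S groups.

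The numbers in the sample titles, which restart in each line and are not the replicate numbers used here, were not taken to pair the mice. Of 22 pairs of the same title number, 9 had deviations correlated over 0.1, with r from -0.30 to 0.40. Among the 10 of these pairs from 1 line, 3 did. Whether mice of the same age and line pair was not tested. With the title number as a block, 4 genes were called over all P301S groups and Vim in the knockout comparison stood at 0.018, and no member passed.

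Leaving out 1 mouse at a time gave 0 to 1 genes called for P301S, 0 to 227 for the knockout, 0 to 3 for active IKKβ and 0 to 27 over all P301S groups. The log2 fold change in the knockout comparison ranged from -1.47 to 0.11 for Gfap, from -0.52 to 0.29 for Vim, from -2.60 to 0.085 for Cd44, from -2.50 to 0.36 for Osmr and from -0.44 to 0.11 for Stat3, with the highest value for Gfap, Cd44, Osmr and Stat3 reached without P301S replicate 3, and for Vim without knockout P301S replicate 2. In the active IKKβ comparison it ranged from -0.68 to 0.38 for Gfap, from -1.41 to 0.12 for Cd44, from -1.54 to 0.047 for Osmr, from -0.30 to 0.18 for Stat3 and from -0.034 to 1.71 for Serpina3n, the highest again without P301S replicate 3. Over all P301S groups Aqp4 ranged from -0.036 to 0.14.

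The number of genes called between astrocytes with and without a Gfap UMI was 413 (196 higher, 2 members) among nuclei of 1000 to 4000 UMIs and 1214 (475 higher) without nuclei passing a second gate. Fewer genes and members were tested in both. With no filter on low counts and those nuclei left out, 441 genes were higher.

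Differences in the share of astrocytes with a UMI, in percentage points, changed with the thinning. Without thinning Gfap over all P301S groups was 9.01 and no longer under an unadjusted p of 0.05, and Aqp4 turned to 3.83 for active IKKβ and to 2.88 over all groups and Stat3 to 1.66 for the knockout. After thinning to 2000 UMIs Gfap for P301S was 8.74 and passed at an unadjusted p, Aqp4 over all groups turned to 1.18, and Vim for the knockout to -0.098, Serpina3n for active IKKβ to -0.00043 and Stat3 for active IKKβ to -0.33. Leaving out 1 mouse at a time gave differences for Gfap from -5.37 to 1.02 (knockout), from -4.89 to 1.502 (active IKKβ) and from 3.06 to 5.19 (all groups). Vim ranged from -0.033 to 0.27 (knockout) and from -0.036 to 0.21 (all groups), Aqp4 from -0.60 to 3.72 (P301S) and from -1.48 to 0.76 (all groups), and Serpina3n from -0.17 to 0.51 (active IKKβ). Cd44 ranged from -1.67 to 0.11 (knockout), Osmr from -1.15 to 0.45 (knockout) and from -0.82 to 0.81 (active IKKβ), and Stat3 from -5.61 to 0.0033 (knockout) and from -0.61 to 2.07 (active IKKβ). The share of nuclei that were astrocytes differed by -1.34 to 0.11 (P301S), by -1.07 to 1.72 (active IKKβ) and by -0.49 to 0.57 (all groups), and by -0.22 over all groups with at least 4 markers.

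Not available were Vim and Serpina3n after thinning to 1000 UMIs, Serpina3n within the floxed line, Vim in the Gfap split with at least 2 Gfap UMIs, at 1000 to 4000 UMIs or without nuclei passing a second gate, and Cd44 and Osmr in the split at 1000 to 4000 UMIs, all for too few counts.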
